A study of Mus musculus with 49 samples.

Results

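The genes described here encode the ligands and receptors of the classical axon guidance families, namely semaphorins with plexins and neuropilins, ephrins with Eph receptors, Slits with Robo receptors, and netrins with their Unc5 and Dcc receptors. The rule for members is a pattern of symbols, which uses no measured value, and 45 of the 9020 genes in the expression table matched. Of these, 21 encode ligands and 23 encode receptors. The remaining gene, Unc50, encodes a membrane protein of the Golgi and matched by its letters only.

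The expression table comes from Patch-seq, in which the content of a single cell is drawn into a patch pipette and its RNA is sequenced. Wild-type CD1 mice were labelled at E13.5 with FlashTag (FT), a fluorescent dye that marks cells dividing at the ventricular surface at the time of injection, and labelled cells of the primary somatosensory area were taken at P7. All 49 cells are labelled as neurons of 1 condition and were picked in fresh slices for bright FT, so cells without the dye are not represented. The labels tie no cell to an animal, a collection day or a depth in the cortex, so none of the 6 independent experiments from which the cells came, per the methods, could be used as a replicate. The cells were therefore handled as 1 group without replicates, and no test was run.

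Guidance ligands tell growing axons and migrating neurons where to go, by attraction or repulsion, and the receptors on the receiving cell decide how the cue is read. In the cortex these families are known for the crossing of the corpus callosum, the layout of thalamic and corticofugal tracts, the sorting of migrating neurons and, after birth, the shaping of dendrites and synapses. Many members work in both directions, since ephrins and transmembrane semaphorins can also signal back into the cell that carries them.

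In each of the 49 cells, at least 2 of 5 neuronal markers (Snap25, Syt1, Stmn2, Map2 and Rbfox3) reached 10 RPM (reads of a gene relative to the total reads of its cell), and their summed level ranged from 1011 to 15101 RPM. At least 2 of 3 excitatory markers did so in 35 cells and at least 2 of 5 inhibitory markers in 17 cells. Markers of other cells were also read. At least 2 astrocyte markers reached 10 RPM in 12 cells, oligodendrocyte lineage markers in 17 and microglial markers in 9, and the summed levels of these lists ran from 0 up to 2501, 3905 and 3934 RPM. Of 4 endothelial markers only Flt1 is listed, and it reached 10 RPM in 2 cells. The hemoglobin genes held at least 1% of the reads in 8 cells and 68.8% in the highest. Depth lay between 209850 and 35342325 reads for each cell (median 1240101), and a single read was worth 4.77 RPM in the shallowest cell.

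The reference annotation (GENCODE M21, GRCm38) has 73 protein-coding genes that match the same names. Both neuropilins and all 3 ephrin-B genes were in the table, as were 14 of 20 semaphorins, 7 of 9 plexins, 6 of 9 EphA, 3 of 5 EphB and 2 of 5 ephrin-A genes. Of the Robo genes 2 of 4 were listed, of the Slit genes 1 of 3, and of the netrin and netrin-G genes 1 of 6. Every gene in the table reached 100 RPM in at least 2 cells, so each member had to be high in at least 2 cells to be listed. Dcc, Robo1, Slit1, Slit3, Ntn1 and the other unlisted members are not analysed here.

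Most guidance genes reached 10 RPM in only a minority of the cells. At least 1 read was found in at least 25 cells for 14 ligands and 16 receptors. At a limit of 10 RPM, 8 of the 44 guidance genes (18.2%) were present in at least 25 of the 49 cells, against 38.2% of all 9020 genes, and Unc50 was a ninth match. They were Epha5, Epha4, Efnb3, Robo2, Ephb6, Plxna4, Plxna2 and Plxna1, that is 1 ligand and 7 receptors. The split moved with the setting, to 3 ligands and 8 receptors for RPM without hemoglobin and mitochondrial genes, 4 and 9 at a limit of 10 reads, and 4 and 8 among the 44 cells kept after thinning to equal depth. Sema6a and Efna3 were among the added ligands in each of these. Leaving out pool 3 gave 3 ligands and 7 receptors. The median guidance gene was present in 14.5 cells, and the median of all listed genes in 20. For ligands the median was 10 cells (range 5 to 34), and for receptors it was 15 cells (range 4 to 38). The median RPM of the median guidance gene was 1.003, against 3.87 for all genes, and 14 of the 45 members had a median of 0. The library was primed at 3′ ends and RPM is not divided by gene length, so genes are ordered here by the number of cells and RPM values are compared between cells for the same gene.

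**Figure D1:**
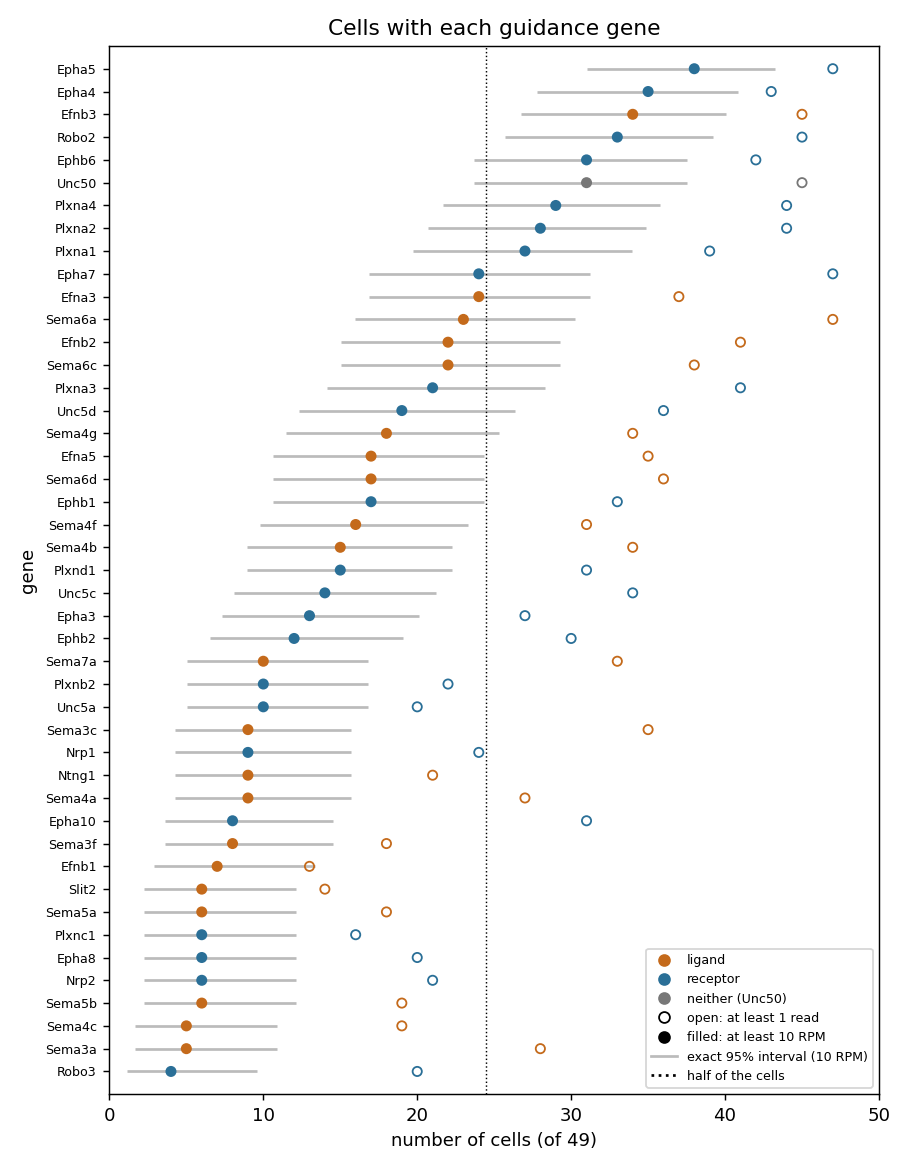
Number of the 49 cells (horizontal axis) in which each of the 45 members was present, with filled points for at least 10 RPM, open points for at least 1 read, grey lines for exact 95% intervals of the 10 RPM count, and a dotted line just below 25 cells. Receptors (blue) hold 7 of the 9 highest places, from 38 cells for Epha5, and Robo3 is lowest with 4 cells.

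The plot of cells per gene also shows how far presence depended on the level asked for. Epha7 and Sema6a had at least 1 read in 47 cells, as many as Epha5, yet reached 10 RPM in only 24 and 23. Over the 44 guidance genes, 677 of the values above 0 lay below 10 RPM, 703 lay at or above it and 776 values were 0. Of the values below 10 RPM, 69.0% were under 1% of the reads of the same gene in another cell of its library pool, while at or above 10 RPM this held for 5.83%. Values below 10 RPM are low by choice, so part of this contrast was fixed by the split. The limit of 1% was chosen after the values were seen, and whether such reads came from another cell of the pool was not tested.

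The EphA receptors, tyrosine kinases that read the membrane-anchored ephrin-A ligands, were read in most cells. At least 1 of the 6 EphA genes was present at 10 RPM in 42 of 49 cells (85.7%, exact 95% interval 72.8 to 94.1), and at least 2 were present in 39 cells. Intervals here cover counting error over these cells only. Epha5 (chr5:84054761-84417382, minus strand) was present in 38 cells (77.6%, 63.4 to 88.2), with a lowest value of 0, a median of 72.8 and a highest of 2677 RPM. The highest value, from 2420 reads, stood far above the second highest of 378.5 RPM, and that cell held 4 of the 5 inhibitory markers.

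Epha4 (chr1:77367185-77515088, minus strand), a receptor that binds ephrins of both the A and the B class, was present in 35 cells (71.4%, 56.7 to 83.4). Its values ranged from 0 to 2683 RPM, with a median of 47.6, and in the cells that reached 10 RPM the median was 192 RPM. It had the widest spread of the 8 widespread genes, an SD of 3.33 on the log2(RPM + 1) scale, against 2.52 for Epha5. Library pools differed for Epha4, present in 11 of the 12 cells of pool 1 and in 4 of the 9 cells of pool 4, with pool medians of 185 and 3.57 RPM. Pool 1 was also the most deeply read, with a median of 9870201 reads per cell against 1119611 in pool 4. The part of depth or pool in this difference was not tested.

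Epha7 was present in 24 cells with a median of 8.87 and a highest value of 863 RPM. Epha3 was present in 13 cells, with a highest value of 854 RPM. Epha10, which encodes a receptor without an active kinase, was present in 8 cells and held 60.3% of its summed RPM in a single cell. Epha8 was present in 6 cells, with a highest value of 235 RPM.

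Epha7 was mostly present together with Epha5 and Epha4. All 3 were present in 21 cells, Epha5 with Epha4 in 12, and Epha5 with Epha7 in 1. Epha5 alone was present in 4 cells, Epha4 alone in 2, Epha7 alone in 2, and none of them in 7. Of the 24 cells with Epha7, 21 therefore held both of the others, while 33 of all 49 cells held both Epha5 and Epha4. These combinations were chosen after the values were seen, and shared depth raises such counts.

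The EphB receptors read the transmembrane ephrin-B ligands, and at least 1 of 3 was present in 36 cells (73.5%, 58.9 to 85.1). Ephb6 (chr6:41605482-41620509, plus strand), another receptor without an active kinase, was present in 31 cells (63.3%, 48.3 to 76.6), with values from 0 to 331 RPM and a median of 34.03. Its highest cell held 9.66% of its summed RPM, the lowest such share of the 45 members, while 7 cells had no read of it. Ephb1 was present in 17 cells and Ephb2 in 12, with highest values of 440 and 266 RPM. In 15 cells Ephb6 was the only EphB gene present, and in 21 cells Ephb1 or Ephb2, the kinase-active members, was present. Counting both classes, a cell held a median of 4 of the 9 Eph receptors, with a range of 0 to 8, and 44 of 49 cells held at least 1.

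Among the ligands of these receptors, 3 ephrin-B and 2 ephrin-A genes were listed. At least 1 of the 3 ephrin-B genes was present in 41 cells (83.7%, 70.3 to 92.7) and at least 1 of the 2 listed ephrin-A genes in 30 cells (61.2%, 46.2 to 74.8). Both were counted in the same cells and from unequal numbers of genes, and their difference was not tested. Efnb3 (chr11:69554092-69560205, minus strand), an ephrin known from the midline of the corticospinal tract, was the most widespread ligand, present in 34 cells (69.4%, 54.6 to 81.7). Its values ranged from 0 to 537 RPM, with a median of 31.7. All 9 cells of pool 3 held it, but only 6 of the 12 cells of pool 1, although its level hardly followed reads per cell (Spearman rho of -0.04 over the 49 cells).

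Efnb2 was present in 22 cells, with a median of 5.41 and a highest value of 711 RPM, and its highest cell held 3 microglial and 2 oligodendrocyte lineage markers. Whether the Efnb2 reads of that cell came from the patched neuron was not tested. Efnb1 was present in 7 cells, 4 of them in pool 3. Efna3 was present in 24 cells with a highest value of 285 RPM, and Efna5 in 17 cells with a highest value of 466 RPM. An antisense gene overlaps exons of Efna3, and the strand setting of the counting is not given in the sources used here.

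Ligand and receptor of a family were often read in the same cell. An ephrin-A and an EphA gene were present together in 27 of 49 cells (55.1%, 40.2 to 69.3), an EphA gene without a listed ephrin-A in 15, and an ephrin-A without an EphA in 3. An ephrin-B and an EphB gene were together in 31 cells (63.3%, 48.3 to 76.6), with ephrin-B alone in 10 and EphB alone in 5. Of the 21 cells with Ephb1 or Ephb2, 20 held an ephrin-B gene, and 31 of the 35 cells with Epha4 did so. Because EphA was present in 42 of all cells and ephrin-B in 41, none of these counts says much about pairing within a cell.

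**Figure D2:**
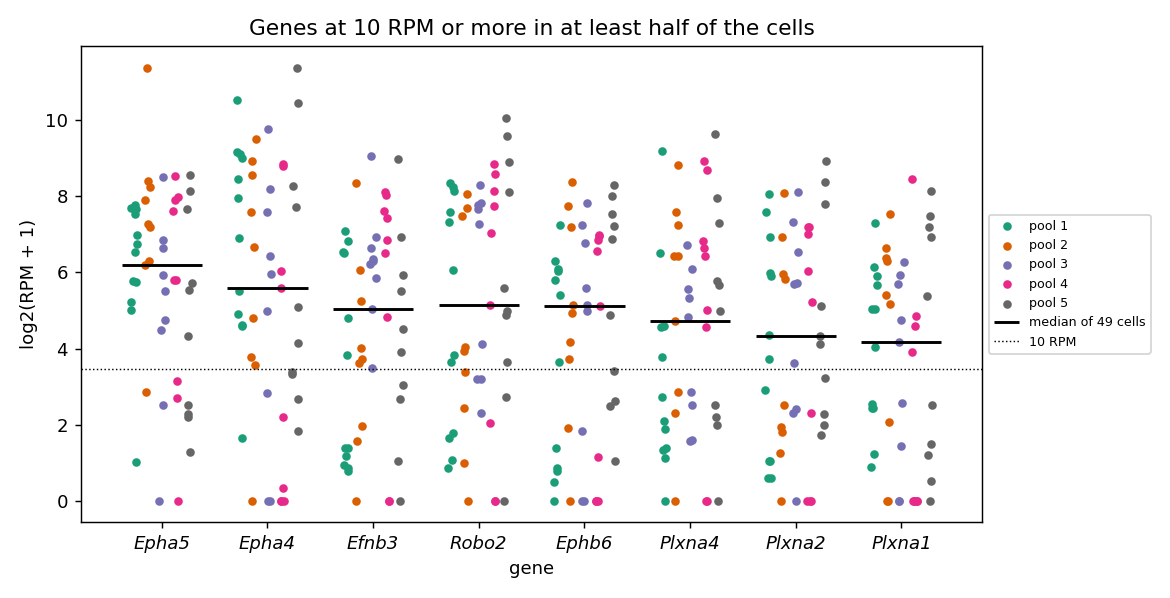
Log2(RPM + 1) of the 8 guidance genes present in at least 25 cells, with a point for each of the 49 cells coloured by library pool, a bar at the median over cells and a dotted line at 10 RPM. Each gene has cells at 0 and at least 1 cell above 300 RPM.

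Plexins, the signalling receptors for semaphorins, were present in 44 cells (89.8%, 77.8 to 96.6), and class A plexins alone in 42. Class A plexins bind class 6 semaphorins directly and class 3 semaphorins through a neuropilin. Plxna4 (chr6:32144268-32588192, minus strand) was present in 29 cells (59.2%, 44.2 to 73.0), with values from 0 to 797 RPM and a median of 25.4. Plxna2 (chr1:194618218-194816869, plus strand) was present in 28 cells (57.1%, 42.2 to 71.2), with a median of 19.1 and a highest value of 488 RPM. Plxna1 (chr6:89316314-89362620, minus strand) was present in 27 cells (55.1%, 40.2 to 69.3), with a median of 16.95 and a highest value of 350 RPM. The 3 intervals overlap almost entirely, and that of Epha5 overlaps each of the other 7 in the plot of widespread genes. The genes were counted in the same cells, so overlap of intervals cannot decide their order, which was not tested. Annotated antisense genes overlap exons of Plxna4 and Plxna1.

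The fourth class A gene, Plxna3, was present in 21 cells, with a highest value of 663 RPM. Cells differed in how many class A plexins they held, with 0 in 7 cells, 1 in 11, 2 in 10, 3 in 10 and all 4 in 11. The number was thus spread almost evenly over the whole possible range. Plxnd1 was present in 15 cells, Plxnb2, a receptor for class 4 semaphorins, in 10, and Plxnc1, the receptor for Sema7a, in 6. Only 1 cell held Plxnc1 together with Sema7a.

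Neuropilins, the ligand-binding partners of class A plexins for class 3 semaphorins, were each present in fewer cells than any class A plexin. Plxnb2 and Plxnc1, in 10 and 6 cells, had counts near those of the neuropilins. At least 1 neuropilin was present in 13 cells (26.5%, 14.9 to 41.1). Nrp1 was present in 9 cells and Nrp2 in 6, with both in 2 cells. Each had a median of 0, and the highest values were 821 and 255 RPM. All 13 cells with a neuropilin held a class A plexin, while 42 of all 49 cells did. The Nrp1 maximum came from 212 reads in a cell of 258130 reads, and without that cell the highest value was 285 RPM.

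The semaphorins, which include secreted, transmembrane and lipid-anchored cues, were present as a family in 46 cells (93.9%, 83.1 to 98.7), but no single member reached 25 cells at 10 RPM. Sema6a did so, at 51.0% of cells, for RPM without hemoglobin and mitochondrial genes and at a limit of 10 reads. Classes 4 and 6, both transmembrane, were each present in 38 cells (77.6%, 63.4 to 88.2). The secreted class 3 was present in 18 cells (36.7%, 23.4 to 51.7), and classes 5 and 7 in 10 cells each. Sema6a was present in 23 cells, with values from 0 to 6621 RPM and a median of 8.06. The highest value came from the same shallow cell as the Nrp1 maximum, with 1709 reads for Sema6a. The next cell had 449 RPM, and the top cell alone held 63.9% of the summed RPM of Sema6a. The top cell held 2 excitatory and 2 oligodendrocyte lineage markers. Oligodendrocyte lineage markers were called in 13 of the 23 cells with Sema6a, where 17 of all 49 cells had them. This was not particular to Sema6a, since they were called in 8 of 13 cells with Epha3 and 10 of 22 with Sema6c. The count was 8 of 17 for Sema6d and 11 of 34 for Efnb3. Whether the Sema6a reads of cells with these markers came from the patched neuron was not tested.

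Sema6c was present in 22 cells, with a median of 7.06 and a highest value of 252 RPM. Sema6d was present in 17 cells with a highest value of 1221 RPM. A class 6 semaphorin and a class A plexin were present together in 34 cells. Within class 4, Sema4g was present in 18 cells, Sema4f in 16, Sema4b in 15, Sema4a in 9 and Sema4c in 5, and their highest values lay between 112 and 545 RPM. Sema4g was present in 7 of the 9 cells of pool 2 and in 2 or 3 cells of each other pool. A class 4 semaphorin and Plxnb2 were present together in 7 cells.

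Of the class 3 genes, Sema3c was present in 9 cells, Sema3f in 8 and Sema3a, the classical repellent for cortical axons, in 5. Sema3a had at least 1 read in 28 cells but a highest value of only 301 RPM. Of the 18 cells with a class 3 semaphorin, 7 also held a neuropilin and 11 did not. Sema5b was present in 6 cells with 66.2% of its summed RPM in 1 cell, at 1470 RPM, and Sema5a was present in 6 cells with its highest value, 644 RPM, in that same cell. Sema7a, a lipid-anchored semaphorin, was present in 10 cells, none of them in pool 5.

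**Figure D3:**
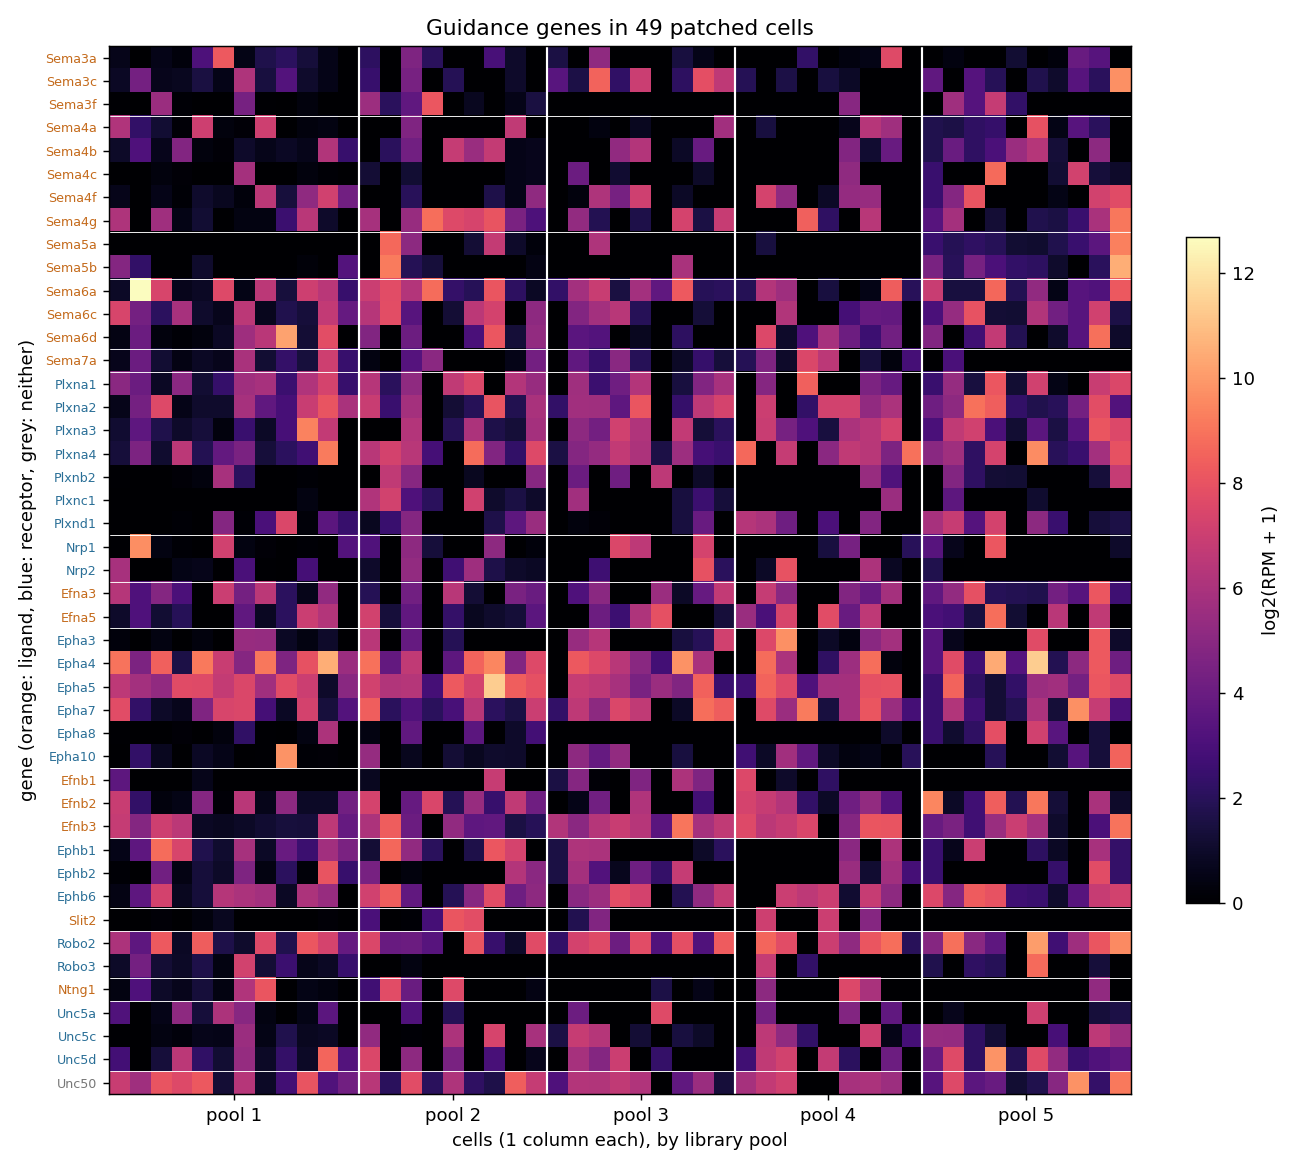
Log2(RPM + 1) of the 45 members (vertical axis, grouped by family) in each of the 49 cells (horizontal axis, 1 column each, ordered by library pool), on a colour scale from black at 0. Epha4, Epha5, Efnb3 and Robo2 form rows that are bright in most columns, while Slit2, Nrp2, Sema5a and Robo3 are dark in all but a few.

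Slit and Robo were read unequally. Robo2 (chr16:73891839-74411825, minus strand), a receptor for Slit ligands, was present in 33 cells (67.3%, 52.5 to 80.0), with values from 0 to 1076 RPM and a median of 34.7. In the cells at or above 10 RPM its median was 201.4 RPM, and 22 cells exceeded 100 RPM. Slit2, a secreted repellent and the only listed Slit, was present in 6 cells (12.2%, 4.63 to 24.8), with a highest value of 274 RPM, and in none of the cells of pools 1 and 5. Leaving out pool 4, which held 3 of these cells, lowered the share to 7.5%. Robo was present without Slit2 in 29 cells, with it in 5, and neither in 14. Robo3, known from the crossing of commissural axons, was present in 4 cells, and 58.0% of its summed RPM lay in a single cell. Its share of 8.16% was 5.41% without pool 1 and 4.88% without the 8 cells rich in hemoglobin.

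The Unc5 receptors mediate repulsion by netrins, and Unc5d also binds FLRT proteins. At least 1 of the 3 listed Unc5 genes was present in 26 cells (53.1%, 38.3 to 67.5). Unc5d was present in 19 cells with a median of 4.77 and a highest value of 917 RPM, and Unc5c in 14 cells with a highest value of 165 RPM, with both in 10 cells. Unc5a was present in 10 cells, and its exons overlap those of Hk3 on the other strand. Since Ntn1 and the other netrins are not listed, no pairing of a netrin with a receptor was counted. Ntng1, the lipid-anchored netrin-G1 that binds Lrrc4c and no netrin receptor, was present in 9 cells, with a highest value of 274 RPM, and Lrrc4c, named after its values were seen, was present in 29 cells with a median of 16.6 RPM.

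More receptor genes than ligand genes were present in most cells. By number of genes at 10 RPM, a cell held a median of 8 of the 23 receptors (0 to 18) and 6 of the 21 ligands (0 to 14), with more receptors in 39 cells, equal numbers in 3 and fewer in 7. The summed RPM of the 23 receptors had a median of 1133 (19.8 to 5979) and that of the 21 ligands a median of 597 (9.26 to 6760). The receptor sum was the higher in 39 of 49 cells (79.6%, 65.7 to 89.8), with a median ratio of 1.86. Without the ligand and the receptor of the highest summed RPM, the share of cells with a higher receptor sum was 73.5%. These sums compare reads, not molecules per length, and depend on which genes the table lists, and only 1 of the Slits and none of the netrins are among them.

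**Figure D4:**
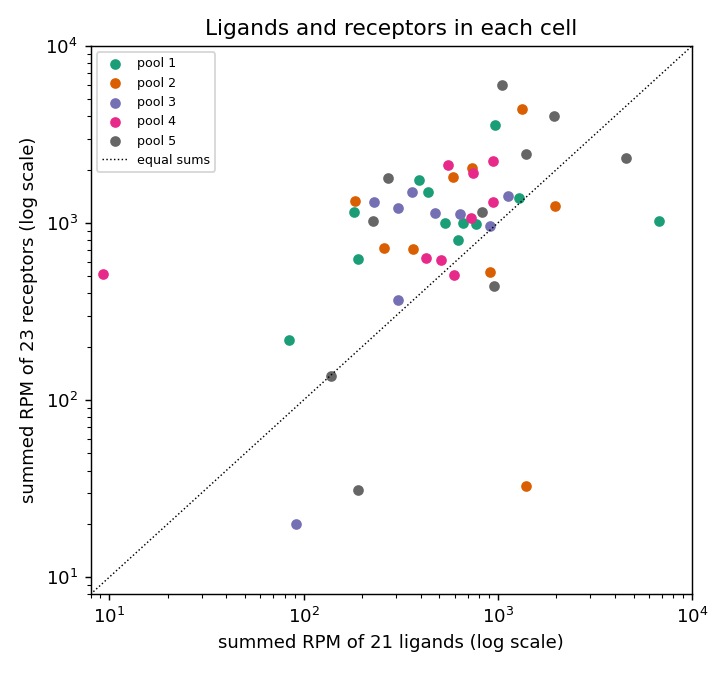
Summed RPM of the 23 receptors (vertical axis, log scale) against that of the 21 ligands (horizontal axis, log scale) in each of the 49 cells, coloured by library pool, with a dotted line at equal sums. The 39 points above the line are cells in which the receptor sum was the higher.

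Cells ranged widely in how many members they held. At 10 RPM the median was 14 of the 45, with quartiles of 10 and 21 and a range of 1 to 31, and at 100 RPM it was 5 (0 to 16). The pool medians at 10 RPM were 13, 16, 15, 21 and 16. The number of members followed the number of all listed genes at 10 RPM in the cell (Spearman rho of 0.77 over the 49 cells) more closely than its reads (0.49). The number with at least 1 read followed the reads most closely (0.82). Members and all genes come from the same library and share its depth, so these values are descriptions. In 3 cells at most 2 members reached 10 RPM, and these cells had 1579 to 2242 of all genes at that level. All 8 widespread genes were present in 8 cells and none of them in 1, with a median of 6.

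**Figure D5:**
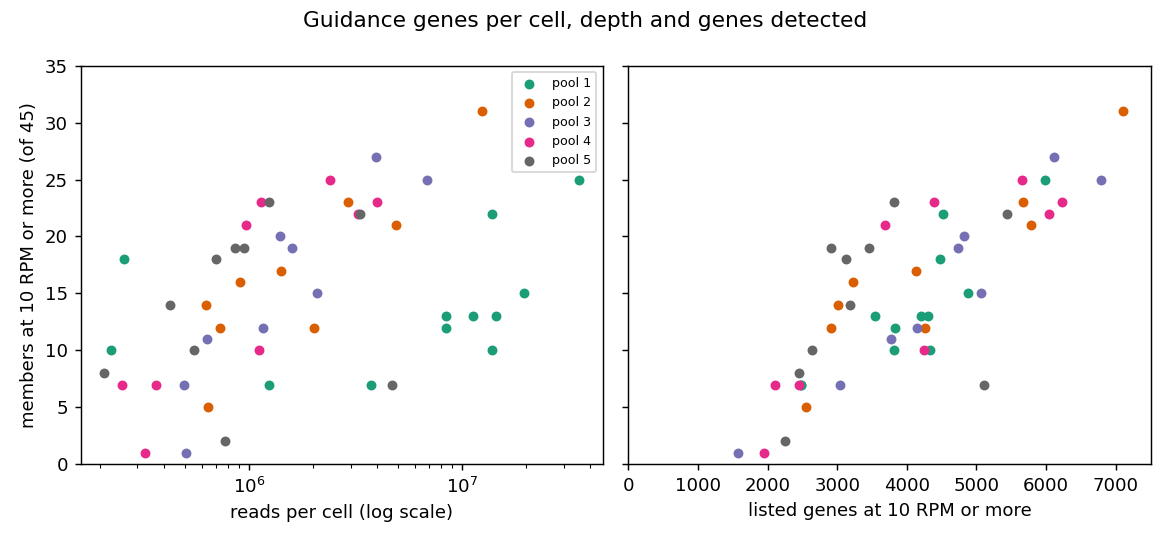
Number of the 45 members at 10 RPM or more in each of the 49 cells (vertical axis), against the reads of the cell (left, log scale) and against the number of all listed genes at 10 RPM or more (right), coloured by library pool. The points rise more tightly on the right, from 1 member at 1579 genes to 31 members at 7105 genes.

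Single cells carried much of the reads of many members. The highest cell held a median of 26.7% of the summed RPM of a member, and over 50% for 5 of them, namely Sema6a, Sema5b, Sema4c, Epha10 and Robo3. The highest values of the 44 guidance genes fell in 23 cells, with 5 in each of a pair of pool 5 cells. The first of these was highest for Epha4, Robo2, Plxna4, Robo3 and Sema4a and held 3 astrocyte markers and 8.97% hemoglobin reads, and the second was highest for Sema3c, Sema4g, Sema5a, Sema5b and Plxnb2 and held 2 inhibitory markers. Glial markers gave a scale for presence in few cells. The 5 listed microglial markers reached 10 RPM in 7 to 11 cells, and 19 guidance genes were present in no more than 11 cells, while 25 were present in more. This comparison was chosen after the values were seen. For the 19, reads from the patched neuron and from material of other cells cannot be told apart by the number of cells.

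Class and layer markers were counted in the cells that held the 4 most widespread genes. Excitatory markers were called in 26 of the 35 cells with Epha4, 29 of 38 with Epha5, 20 of 34 with Efnb3 and 24 of 33 with Robo2, where 35 of all 49 cells had them. Inhibitory markers were called in 14, 15, 15 and 13 of these, where 17 of all 49 had them. Tbr1, a deep layer marker present in 16 of the 49 cells, was present in 12 of the cells with Epha4, 12 with Epha5, 9 with Efnb3 and 11 with Robo2. Cux2, a superficial layer marker present in 24 cells, was found in 17, 18, 17 and 16 of these cells. The other layer markers, Tle4, Bcl11b and Cux1, were present in 13, 20 and 26 of all cells. They were present in 11, 16 and 20 of the 35 cells with Epha4 and in 12, 18 and 20 of the 38 with Epha5. The counts were 10, 15 and 17 of the 34 with Efnb3, and 11, 13 and 21 of the 33 with Robo2. These are counts of cells that hold both, with no test.

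Among the 8 widespread genes, 3 pairs had the most similar levels over the 49 cells. Plxna2 and Ephb6 had a Spearman rho of 0.54, Epha4 and Robo2 one of 0.50, and Plxna2 and Robo2 one of 0.36. Plxna2 and Ephb6 were both present in 24 cells and both absent at 10 RPM in 14. Neither followed reads per cell closely, with rho of 0.15 and 0.09, whereas Epha4 (0.46) and Robo2 (0.26) shared more with depth. These points share their libraries and the number of genes detected. The other 25 of the 28 pairs lay between -0.03 and 0.35.

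The promoters of Plxna2 and Ephb6 are shown because their transcripts were the most alike over cells. Each is a window of 300 bases around the RefSeq start site (GRCm38.p6), at chr1:194619579-194619878 and chr6:41605261-41605560, both on the plus strand. Capitals mark GC boxes, the hexamer GGGCGG or its reverse complement CCGCCC.
Plxna2: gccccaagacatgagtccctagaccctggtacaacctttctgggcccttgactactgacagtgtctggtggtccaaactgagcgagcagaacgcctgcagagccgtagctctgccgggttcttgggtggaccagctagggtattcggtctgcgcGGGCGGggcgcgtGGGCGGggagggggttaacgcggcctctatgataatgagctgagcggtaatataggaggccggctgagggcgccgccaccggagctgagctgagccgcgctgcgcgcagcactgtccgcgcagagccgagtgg
Ephb6: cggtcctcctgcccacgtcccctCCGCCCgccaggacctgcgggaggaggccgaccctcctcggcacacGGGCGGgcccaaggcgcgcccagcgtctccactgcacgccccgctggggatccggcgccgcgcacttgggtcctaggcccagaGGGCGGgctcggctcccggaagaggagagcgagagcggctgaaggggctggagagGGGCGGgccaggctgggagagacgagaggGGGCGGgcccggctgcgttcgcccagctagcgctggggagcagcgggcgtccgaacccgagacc
The Plxna2 window has 64.7% G and C, 25 CG dinucleotides and 2 GC boxes, and the Ephb6 window has 76.3%, 34 and 5. Windows were found in RefSeq for 39 of the 45 members, 51 windows in all. GGGCGG on either strand lay in 72.5% of them, against 35.7% of all 32851 windows, and TATAAA on either strand lay in 3.92% against 13.6%. Their median content of G and C was 65.3%, against 52.7% for all windows. All windows cover 27025 genes, whether or not in the expression table, and a comparison with the 9020 listed genes alone was not made. Not every widespread gene had a GC box, since the 3 windows of Robo2 held 0. The motifs were chosen after the values were seen, and a match describes letters only.

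A further list held 52 genes that work with these pathways, from intracellular effectors and adaptors to surface partners such as adhesion molecules. Of these, 46 were listed and 25 (54.3%) were present in at least 25 cells, against 38.2% of all genes, with a median of 28 cells. Gap43, a growth cone protein, was present in all 49 cells with values from 54.5 to 9650 RPM and a median of 3064. The semaphorin effectors Crmp1, Dpysl2 and Dpysl3, the GTPase Cdc42 and the actin-severing Cfl1 were also present in every cell, with medians between 358 and 1690 RPM. Pak3, a kinase downstream of Cdc42, was present in 46 cells and Chl1, an adhesion molecule that acts with neuropilins, in 45. Other core effectors were read in fewer cells, with Rhoa in 24, Rac1 in 18, Nck1 in 12, Limk1 in 11 and Vav2 in 8. The FLRT genes, which encode ligands of Unc5 receptors, were present in 9 (Flrt1), 10 (Flrt2) and 8 cells (Flrt3), and were, like these effectors, named after their values were seen.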

How the data were processed

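The authors prepared cDNA with a 3′-end SMART-Seq v4 kit without molecular identifiers, sequenced it in 5 library pools, used STAR for alignment to GRCm38 and HTSeq for counting, and deposited RPM values. Versions, annotation and strand setting are not given in the sources used here. Cells held between 209850 and 35342325 reads, and intervals cover counting error only. Whole reads were recovered from the RPM steps, with 100% of 314114 non-zero values no more than 0.01 reads from a whole number. The recovery was tested on simulated data. No 2 cells had identical values.

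A gene was present at 10 RPM or more. Intervals are exact Clopper-Pearson at 95%. A marker class needed 2 markers at 10 RPM. Genes described in full were, per family and role, the 2 members present in the most cells, every member present in at least 25 cells, and the 3 with the highest value. Up to 8 downstream genes and the 3 most alike pairs were named. Other members were given by cell count and highest value. Members followed a pattern of symbols, and these families and all lists were proposed with earlier results of these data known. No test was made, because the labels assign no cell to an animal or experiment. Alternatives were limits of 1 read, 10 reads, 1 RPM and 100 RPM, thinning to 358412 reads, RPM without hemoglobin and mitochondrial genes, pseudocounts of 0.1 and 10 in place of 1, a filter of 100 reads in 2 cells, and leaving out each pool. Scripts ran in Python 3.11.15 with scipy 1.17.1, pandas 2.3.3, numpy 2.4.6 and matplotlib 3.10.9, with coordinates from GENCODE M21.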

Additional observations from a re-analysis of the deposited data

How the results depend on the processing

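The level at which a gene counts as present set most values. The median number of members per cell was 31 at 1 read, 25 at 1 RPM and 5 at 100 RPM, and the members present in at least 25 cells were 31 at 1 read, 14 at 10 reads, 23 at 1 RPM and 0 at 100 RPM. At 1 read, the share of cells with a family was 100% for semaphorins, plexins and EphA, 95.9% for ephrin-B and EphB, 93.9% for Robo, 87.8% for ephrin-A and Unc5, 69.4% for neuropilins, 42.9% for netrin-G and 28.6% for Slit. At 1 RPM it was 100% for semaphorins, plexins and EphA, 93.9% for ephrin-B and EphB, 89.8% for Robo, 85.7% for ephrin-A, 81.6% for Unc5 and 51.0% for neuropilins. At 100 RPM it was 69.4% for EphA, 63.3% for semaphorins, 55.1% for plexins, 46.9% for Robo, 40.8% for ephrin-B, 38.8% for EphB, 26.5% for Unc5, 22.4% for ephrin-A, 12.2% for neuropilins and 8.16% for netrin-G. Cells with a ligand and a receptor made up 100% (semaphorin), 87.8% (ephrin-A), 91.8% (ephrin-B) and 26.5% (Slit) at 1 read, 100%, 85.7% and 87.8% for the first 3 at 1 RPM, and 44.9%, 16.3% and 24.5% at 100 RPM. Thinning left 13 members present in at least the same share of the 44 cells kept, and RPM without hemoglobin and mitochondrial genes left 12. Leaving out any library pool left 10 or 11 members, and setting low values to 0 left 9. The latter, the counts without Unc50 and those without the 8 cells rich in hemoglobin were added after seeing the data. Split by role, the 1 ligand became 4 after thinning and 3 for RPM without hemoglobin and mitochondrial genes. It became 3 without pool 3, and 2 without pool 2, without pool 4 or without the cells rich in hemoglobin. With low values set to 0, without pool 1 or without pool 5 it stayed at 1. None of these settings moved the count of members by over 1.5 times or a family share beyond its counting interval. Within that interval, the Slit share was 7.5% without pool 4, and the Robo3 share, 8.16%, was 5.41% without pool 1, 4.88% without the cells rich in hemoglobin and 16.3% at 10 reads. Of the log2 spreads of named genes, many moved by over 1.5 times with a pseudocount of 10. No paired analysis was possible because the series has a single condition. The depth limits low values, since 10 RPM is only a few reads in the shallowest cells.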
